A study of Homo sapiens with 8 samples.

Results

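The level of 10 genes of the YAP and TEAD pathway was measured in the Ewing sarcoma cell lines RD-ES and SK-N-MC. Control cells were compared with separate cell pools in which the enhancer of LOXHD1 was silenced. The 10 genes are the effectors YAP1, WWTR1 and TEAD1, the upstream regulators LATS2, AJUBA, AMOT and AMOTL2, and the targets CYR61, CTGF and ANKRD1, out of 60332 genes measured. They were chosen by pathway membership, with earlier results of these data known. AMOTL2 was taken as the lead because its lower value in SK-N-MC eKD2 cells than in SK-N-MC control cells was already known. For this reason the eKD2 values in SK-N-MC are given for all 10 genes as a description with no test. Each gene symbol had 1 row of values, so none had to be picked by its mean.

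RNA of 8 libraries was sequenced, 2 from each of 4 groups. RD-ES control and SK-N-MC control cells were infected with an empty lenti-dCas9-KRAB virus according to the labels, whereas the paper names such controls parental. RD-ES eKD2 and SK-N-MC eKD2 cells carried dCas9-KRAB, a Cas9 unable to cut that is joined to the KRAB repressor, with a guide RNA that directs it next to the GGAA repeat of the LOXHD1 enhancer. All were pools of infected cells rather than single clones, infected at a multiplicity of infection of 10, kept in 1 µg/ml puromycin for 3 days and used within 5 passages. With 2 libraries in a group, described as biological duplicates, the smallest two-sided p of an exact permutation test is 0.333, and the p-values given here come from limma.

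LOXHD1 was between 21.2 and 21.4 FPKM (read number per length and library size) in RD-ES control and between 1.02 and 1.04 FPKM in RD-ES eKD2. In SK-N-MC it was between 159 and 169 FPKM in control and between 11 and 12 FPKM in eKD2. ZNF10 is the gene from which the KRAB domain of such constructs is usually taken. It was at 7.65 to 10.2 FPKM in the control libraries of both lines and at 49.0 to 65.1 FPKM in the eKD2 libraries. The labels give a dCas9-KRAB virus for both, but the titles of the control samples read cas9. Whether the control cells carried dCas9-KRAB was not tested, nor was the part of the repressor itself in the eKD2 differences. All 7 Ewing sarcoma markers examined were expressed, among them CD99 at 201 to 586 FPKM and NKX2-2 at 24.2 to 30.7 FPKM. Some differed between the lines, in both directions. NR0B1 was at 2.38 to 3.84 FPKM in RD-ES and 51 to 59.6 FPKM in SK-N-MC. LIPI was at 40.3 to 62.2 FPKM in RD-ES and 17.6 to 22.2 FPKM in SK-N-MC. The number of reads was not given with the values, and a rough estimate from the steps of low values ran from 6.6 M reads (M, mega; RD-ES eKD2 replicate 1) to 26.8 M (SK-N-MC control replicate 1).

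YAP1 and its paralog TAZ, encoded by WWTR1, are transcription coactivators that bind DNA through TEAD proteins such as TEAD1. The Hippo kinases, LATS2 among them, phosphorylate YAP and TAZ and hold them outside the nucleus, and the angiomotins AMOT and AMOTL2 bind YAP and TAZ and tie them to cell junctions and to actin. AJUBA, a LIM domain protein, binds and restrains LATS kinases, and CYR61 (CCN1), CTGF (CCN2) and ANKRD1 are widely used readouts of YAP and TEAD activity. AMOTL2 and LATS2 are themselves known as targets of YAP and TEAD, which forms a negative feedback. YAP and TAZ themselves are regulated largely by protein phosphorylation and location, which RNA levels do not measure.

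The core of the TEAD binding motif, GGAATG or CATTCC on the other strand, was searched in the 250 bases before each RefSeq start (GRCh38.p14), since it is the DNA element through which these targets are known to be reached. GGAATG also holds GGAA, the core of the ETS motif bound by EWSR1::FLI1. CYR61 and TEAD1 have no entry in the promoter table used here. Of the other 8 genes, 5 had at least 1 match in at least 1 of their starts, or 5 of 11 promoters, against 11.9% of 35116 promoters in the table. CTGF had 3 matches, with their first bases at -169, -104 and -95 from the start, and 0.0826% of all promoters had 3 or more. ANKRD1 had 2, at -220 and -128, and 0.94% of all promoters had at least 2. AMOTL2 had 1 at its second start, at -69, and none at its first, while YAP1 had 1 at -162 and AJUBA 1 at its second start, at -59. WWTR1, LATS2 and AMOT had none in these windows. A match is a description of the letters and not evidence of binding. The 3 promoters below are those of the lead gene and of both targets with several matches, from 5′ to 3′ on the strand of the gene, with the matches in capitals. They lie on the minus strand of GRCh38.p14 at chr6:131951373-131951622 for CTGF, chr10:90921088-90921337 for ANKRD1 and chr3:134374448-134374697 for the second start of AMOTL2.
CTGF: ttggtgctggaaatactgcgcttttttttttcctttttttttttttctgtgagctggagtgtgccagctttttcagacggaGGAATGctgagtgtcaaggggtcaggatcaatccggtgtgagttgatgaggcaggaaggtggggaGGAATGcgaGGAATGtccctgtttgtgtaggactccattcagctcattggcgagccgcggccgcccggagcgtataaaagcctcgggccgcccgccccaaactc
ANKRD1: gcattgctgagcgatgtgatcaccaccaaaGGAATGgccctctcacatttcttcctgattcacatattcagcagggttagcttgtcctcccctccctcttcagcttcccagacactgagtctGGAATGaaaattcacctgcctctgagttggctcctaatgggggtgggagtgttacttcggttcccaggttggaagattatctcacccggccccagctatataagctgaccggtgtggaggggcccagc
AMOTL2: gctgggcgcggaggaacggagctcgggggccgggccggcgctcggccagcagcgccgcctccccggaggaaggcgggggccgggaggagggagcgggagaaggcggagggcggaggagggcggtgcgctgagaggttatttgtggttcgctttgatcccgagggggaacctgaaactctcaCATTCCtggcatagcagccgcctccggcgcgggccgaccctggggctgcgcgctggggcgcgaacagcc

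The values themselves were made on GRCh37. AMOTL2 (ENSG00000114019.14_3) is annotated there on chromosome 3 from 134074189 to 134094321 on the minus strand, and WWTR1 on the same chromosome from 149235022 to 149454501, also on the minus strand. YAP1 lies on chromosome 11 from 101981178 to 102104155 and TEAD1 on the same chromosome from 12695968 to 12966284, both on the plus strand. LATS2 spans bases 21547175 to 21635725 of chromosome 13, AJUBA bases 23440386 to 23451760 of chromosome 14 and AMOT bases 112017731 to 112084059 of chromosome X, all 3 on the minus strand. CYR61 lies on chromosome 1 from 86046444 to 86050272 on the plus strand, CTGF on chromosome 6 from 132269316 to 132272512 and ANKRD1 on chromosome 10 from 92671853 to 92680844, the last 2 on the minus strand. The library kit named in the paper does not mark strand, so reads of a gene and of an overlapping antisense gene cannot be told apart. Exons of antisense transcripts cover 11.9% of the exon bases of CTGF (LINC01013), 10.0% of those of YAP1 (AP000942.2) and 9.1% of those of WWTR1 (WWTR1-AS1). These 3 transcripts were at no more than 0.173, 0.182 and 0.727 FPKM in any library. A pseudogene on the same strand, RPL39P5, covers 2.9% of the exon bases of AMOTL2. It was at no more than 0.514 FPKM in any RD-ES library, at 3.53 and 0.461 FPKM in SK-N-MC control and at 8.22 FPKM and near 0 in SK-N-MC eKD2. How reads were divided between AMOTL2 and RPL39P5 is uncertain, and its part in the AMOTL2 values was not tested.

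Among the 10 genes TEAD1 had the highest mean over the 8 libraries (53.1 FPKM), above 82.5% of the 15175 genes tested (those whose mean reached 1 FPKM). YAP1 followed at 43.7, WWTR1 at 39.3 and AJUBA at 24.6 FPKM. AMOTL2 and AMOT shared a mean of 15.3 FPKM, and CYR61 (9.41), LATS2 (4) and CTGF (3.35) came below, with CTGF above 20% of those genes. ANKRD1 was last, at 0 in 6 libraries, 0.0387 FPKM in RD-ES eKD2 replicate 2 and 0.0424 FPKM in SK-N-MC control replicate 2. Each of these 2 values comes to about 1 read, so ANKRD1 was near the limit of detection in both lines. It was the only 1 of the 10 genes that did not pass the filter on low values. FPKM is divided by length, so levels of different genes can be compared.

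The order of the effectors differed between the lines. In RD-ES, YAP1 (42.7 to 47.8 FPKM) and TEAD1 (43.5 to 47.4 FPKM) overlapped, and WWTR1 lay below both at 12.7 to 16.1 FPKM. In SK-N-MC, WWTR1 (57.6 to 76.3 FPKM) overlapped TEAD1 (57.9 to 62.1 FPKM), and YAP1 lay below both at 37.6 to 46.3 FPKM. Lower in the order, AMOT and CYR61 overlapped in RD-ES, as did LATS2 and CTGF. In SK-N-MC it was AMOTL2 and CYR61 that overlapped, and every AMOT value exceeded every AMOTL2 value, the reverse of RD-ES.

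**Figure D1:**
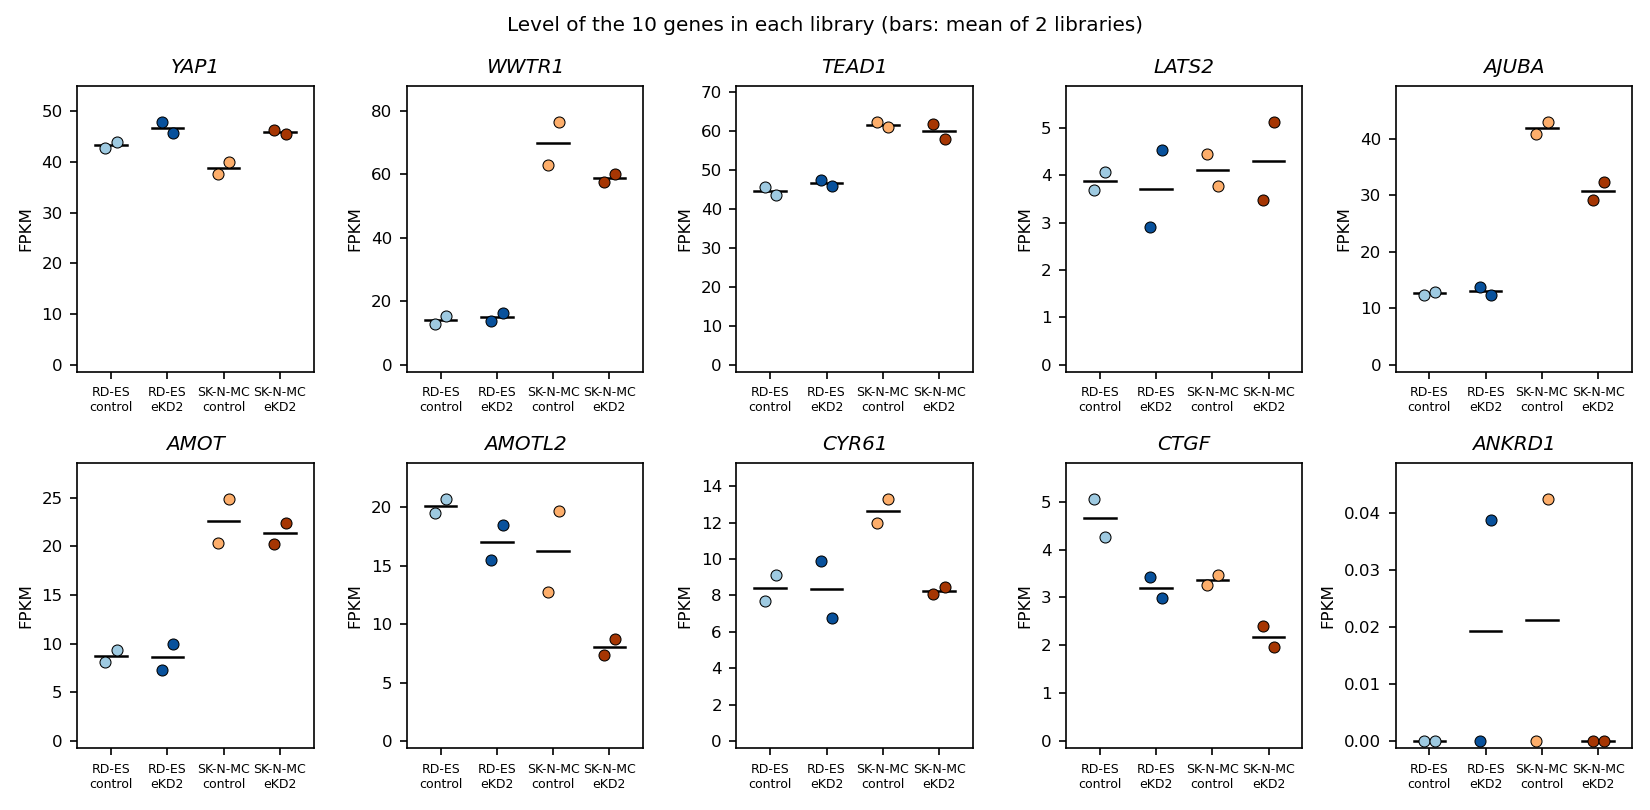
FPKM of the 10 genes in each library, on axes from 0 that differ between genes. Points are libraries, coloured by group, and bars are the mean of 2 libraries. WWTR1, AJUBA and AMOT stand higher in all 4 SK-N-MC libraries, and AMOTL2 is lowest in the 2 SK-N-MC eKD2 libraries, at 7.36 and 8.70 FPKM.

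The lines were compared separately in control and in eKD2 libraries, to see at which steps of the pathway they differ. Both comparisons use SK-N-MC libraries in which the AMOTL2 value was known, so AMOTL2 was left out of the tests and 8 genes were tested. These 8 genes were also chosen with earlier results of these data known, so their p-values are not independent of that choice. WWTR1, AJUBA, AMOT and TEAD1 were higher in SK-N-MC in both. CYR61 was higher in SK-N-MC control cells, and no gene of the 8 was lower in SK-N-MC past the threshold (adjusted p under 0.05, limma). The 5 of 8 genes that were higher in control libraries compare with 31.4% of all genes tested, and the 0 that were lower with 26.4%. In eKD2 libraries 4 of 8 were higher, against 28.2% of all genes tested, and 0 lower, against 28.1%. At an unadjusted p under 0.05 (limma), 1 of the 8 genes, CTGF, was lower in each comparison. Of all genes tested, 26.4% and 28.1% were lower even after adjustment, so this count is below the share of all genes. The medians over the 8 genes were 0.50 and 0.26 on the log2(FPKM + 1) scale, against 0.065 and 0.011 over all genes tested.

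WWTR1 was at 12.7 and 15.2 FPKM in RD-ES control, 63 and 76.3 in SK-N-MC control, 13.7 and 16.1 in RD-ES eKD2 and 57.6 and 60 in SK-N-MC eKD2. The libraries of the lines were far apart in both conditions. Its mean was 4.99-fold higher in SK-N-MC control cells (log2 difference 2.24, standard error 0.136, limma adjusted p = 6.5e-05) and 3.94-fold higher in eKD2 cells (1.91, standard error 0.136, adjusted p = 0.00012). YAP1, its paralog, was at 42.7 and 44 FPKM in RD-ES control and 37.6 and 40.0 FPKM in SK-N-MC control. These YAP1 libraries did not overlap, but the log2 difference of -0.16 (95% interval -0.32 to 0.0071) had an adjusted p of 0.09 with limma. It passed when libraries were scaled to a common median (-0.30, adjusted p = 0.011) or quantile normalized (-0.20, adjusted p = 0.038). In eKD2 libraries YAP1 overlapped, at 47.8 and 45.7 FPKM in RD-ES and 46.3 and 45.4 FPKM in SK-N-MC (log2 difference -0.027, 95% interval -0.19 to 0.14). WWTR1 was thus 0.287 to 0.352 times YAP1 in the 4 RD-ES libraries and 1.24 to 1.91 times YAP1 in the 4 SK-N-MC libraries. The sum of both was 55.4 to 61.8 FPKM in RD-ES, against 101 to 116 FPKM in SK-N-MC.

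TEAD1 differed less. It was at 45.5 and 43.5 FPKM in RD-ES control, 62.1 and 60.9 in SK-N-MC control, 47.4 and 45.8 in RD-ES eKD2 and 61.8 and 57.9 in SK-N-MC eKD2, with no overlap between the lines. The means were 1.38-fold higher in SK-N-MC control (log2 difference 0.46, standard error 0.0668, limma adjusted p = 0.0018) and 1.28-fold higher in eKD2 (0.35, adjusted p = 0.0052). Of the summed FPKM of the 4 TEAD genes, TEAD1 made up 30.5% to 39.1% and TEAD2 34.6% to 44.2% over the 8 libraries.

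AJUBA had the next largest difference after WWTR1 among the 8 genes tested in control libraries, and in eKD2 libraries it came after AMOT. Its values were 12.4 and 12.9 FPKM in RD-ES control, 40.9 and 42.9 in SK-N-MC control, 13.7 and 12.3 in RD-ES eKD2 and 29.2 and 32.4 in SK-N-MC eKD2. The mean was 3.32-fold higher in SK-N-MC control (log2 difference 1.65, standard error 0.0911, limma adjusted p = 4.5e-05) and 2.36-fold higher in eKD2 (1.18, adjusted p = 0.00016). The file gives AJUBA a locus of 53.0 kb where the annotated gene spans 11.4 kb. A neighbouring coding gene on the same strand, AL132780.3, shares 0.8% of the exon bases of AJUBA and was at 4.38 to 9.40 FPKM in RD-ES and 18.5 to 28.1 FPKM in SK-N-MC. It thus moved with the line as AJUBA did, and its part in the AJUBA values was not tested.

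AMOT and AMOTL2, the paired angiomotins, stood in opposite order in the lines. AMOT was at 8.08 and 9.33 FPKM in RD-ES control, 20.4 and 24.9 in SK-N-MC control, 7.32 and 9.95 in RD-ES eKD2 and 20.3 and 22.4 in SK-N-MC eKD2. AMOT was therefore higher in every SK-N-MC library than in any RD-ES library, by 2.60-fold in control (log2 difference 1.28, standard error 0.168, limma adjusted p = 0.0012) and 2.47-fold in eKD2 (1.22, adjusted p = 0.0015). AMOTL2, given with no test, was at 19.5 and 20.7 FPKM in RD-ES control and at 12.7 and 19.7 FPKM in SK-N-MC control, which overlapped. In eKD2 it was at 15.5 and 18.5 FPKM in RD-ES and 7.36 and 8.70 FPKM in SK-N-MC, a mean 2.12-fold lower in SK-N-MC. The ratio of AMOTL2 to AMOT was 2.42 and 2.22 in the RD-ES control libraries, 2.12 and 1.86 in those of RD-ES eKD2, 0.625 and 0.789 in SK-N-MC control, and 0.363 and 0.388 in SK-N-MC eKD2. LATS2, the kinase, was between 2.90 and 4.54 FPKM in RD-ES, against 3.48 to 5.12 FPKM in SK-N-MC. Its libraries overlapped in both comparisons, with log2 differences of 0.065 (95% interval -0.49 to 0.62) and 0.17 (-0.38 to 0.73), so that no difference in LATS2 was detectable at this spread.

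Among the targets, CYR61 was at 7.71 and 9.10 FPKM in RD-ES control and 12.0 and 13.3 FPKM in SK-N-MC control. This was 1.51-fold higher in SK-N-MC (log2 difference 0.54, standard error 0.175, limma adjusted p = 0.038). The call was lost with no filter on low values (adjusted p = 0.078), with median scaling (0.088), with quantile normalization (0.096) and when any 1 of the 4 libraries compared was left out (0.072 to 0.17). In eKD2 libraries CYR61 overlapped, at 9.90 and 6.78 FPKM in RD-ES and 8.06 and 8.44 FPKM in SK-N-MC (log2 difference 0.0057, 95% interval -0.42 to 0.43). CTGF had values of 5.06 and 4.26 FPKM in RD-ES control and 3.25 and 3.46 FPKM in SK-N-MC control, and in eKD2 libraries of 3.42 and 2.99 FPKM in RD-ES against 2.40 and 1.96 FPKM in SK-N-MC. CTGF libraries of the lines did not overlap in either condition, with log2 differences of -0.38 (95% interval -0.72 to -0.03, limma adjusted p = 0.062) and -0.40 (-0.75 to -0.059, adjusted p = 0.051). Median scaling took both past the threshold (-0.50, adjusted p = 0.031, and -0.45, adjusted p = 0.044), and so did quantile normalization and a fit without trend. The differences of these 2 targets lay on opposite sides of 0 in control cells, that of CTGF short of the threshold, and CYR61 was 1.52 to 2.90 times CTGF in RD-ES and 3.36 to 4.31 times CTGF in SK-N-MC. The file gives CTGF a locus of 129.2 kb where the annotated gene spans 3.2 kb, and CTGF rested on an estimated 52.8 to 204 reads a library, the fewest of the 9 genes compared.

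**Figure D2:**
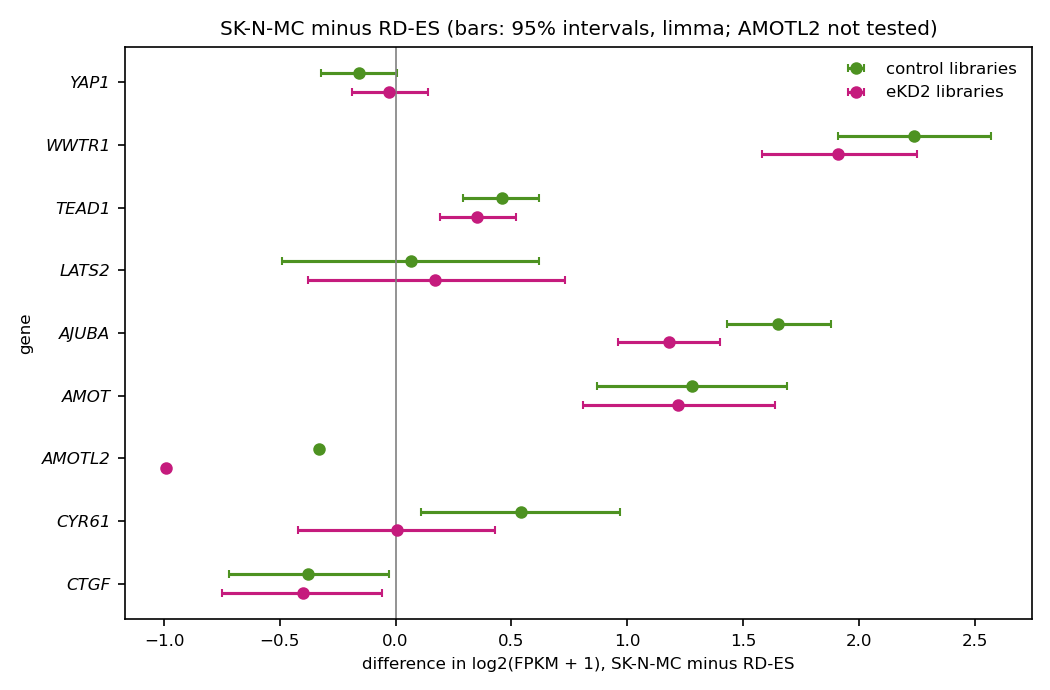
Difference between the lines in log2(FPKM + 1), SK-N-MC minus RD-ES, for 9 of the 10 genes (ANKRD1 was too low), in control and in eKD2 libraries. Points are limma estimates from 2 libraries a group, bars are 95% intervals and AMOTL2, not tested, has no bars. WWTR1, AJUBA and AMOT lie above 1 in both, and CYR61 is at 0.54 in control and 0.0057 in eKD2 libraries.

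In RD-ES, none of the 9 genes tested passed the adjusted threshold between eKD2 and control libraries (0 of 9, limma), where 0.343% of all genes tested were called. At an unadjusted p under 0.05 there was 1, CTGF, against 12.3% of all genes. The median log2 change over the 9 genes was -0.02, against 0.031 over all genes tested. YAP1 and TEAD1 were higher in both eKD2 libraries than in either control library, 2 of 9 against 24.2% of all genes, and the TEAD1 difference turned from 0.064 to -0.007 with median scaling. AMOTL2 and CTGF were lower in both, 2 of 9 against 15.1% of all genes. The libraries of the other 5 overlapped.

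CTGF in RD-ES went from 5.06 and 4.26 FPKM in control to 3.42 and 2.99 FPKM in eKD2, a change in the mean of -31.3%. The log2 difference was -0.43 (standard error 0.142, 95% interval -0.77 to -0.082), with an unadjusted p of 0.023 and an adjusted p of 0.32 (limma). AMOTL2 in RD-ES went from 19.5 and 20.7 to 15.5 and 18.5 FPKM, a change in the mean of -15.4% (log2 difference -0.23, 95% interval -0.74 to 0.27, limma adjusted p = 0.68). YAP1 had a log2 difference of 0.11 (95% interval -0.059 to 0.27), from 42.7 and 44 to 47.8 and 45.7 FPKM. For WWTR1 the difference was 0.091 (-0.24 to 0.42), for AJUBA 0.04 (-0.18 to 0.26) and for AMOT -0.02 (-0.43 to 0.39). The intervals were widest for LATS2 (-0.62 to 0.48) and wide for CYR61 (-0.45 to 0.40), whose eKD2 libraries in RD-ES lay on both sides of the controls. RD-ES eKD2 replicate 1 had the lowest depth of the 8 libraries, an estimated 6.6 M reads.

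In SK-N-MC, AMOTL2 was at 12.7 and 19.7 FPKM in control and at 7.36 and 8.70 FPKM in eKD2. Both eKD2 libraries lay below both control libraries, and the control libraries differed from each other by more than the eKD2 libraries did. The mean went from 16.2 to 8.03 FPKM, a change of -50.4% (2.02-fold lower) and a log2 difference of -0.90 (standard error 0.206). Without SK-N-MC control replicate 1, the lower of the pair, it was -1.20, and without control replicate 2 it was -0.61. Control replicate 1 was the deepest library of the series and control replicate 2, at an estimated 11.7 M reads, the shallowest of SK-N-MC. AMOTL2 rested on an estimated 498 to 1660 reads a library. Its paralog AMOT went from 20.4 and 24.9 to 20.3 and 22.4 FPKM, with overlapping libraries (log2 difference -0.077). Since bulk RNA was measured, fewer cells that express a gene and less RNA of it per cell cannot be told apart.

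The other genes are described in the same way for SK-N-MC. Of the 9 genes, 5 were lower in both eKD2 libraries than in either control library (WWTR1, AJUBA, AMOTL2, CYR61 and CTGF), where 25.1% of all genes were, and 1 was higher (YAP1), where 22.2% were. Because AMOTL2 was known from these libraries, nothing is read from these counts. CYR61 went from 12.0 and 13.3 to 8.06 and 8.44 FPKM, a change of -34.9% (log2 difference -0.56, standard error 0.175). CTGF went from 3.25 and 3.46 to 2.40 and 1.96 FPKM, a change of -35% (log2 difference -0.46, standard error 0.142). AJUBA went from 40.9 and 42.9 to 29.2 and 32.4 FPKM, a change of -26.6% (-0.44, standard error 0.0911). The values of these 3 genes are a description as well, and nothing is read from them as a set. WWTR1 went from 63 and 76.3 to 57.6 and 60 FPKM, a change of -15.6% (-0.24, standard error 0.136), which was -0.37 without SK-N-MC control replicate 1 and -0.099 without control replicate 2. YAP1 went from 37.6 and 40.0 to 46.3 and 45.4 FPKM, 18.1% higher (0.24, standard error 0.0672). TEAD1 (-0.039) and LATS2 (0.037) overlapped. The change in RD-ES and the change in SK-N-MC share no libraries, and their difference was not tested for these genes because SK-N-MC enters it.

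**Figure D3:**
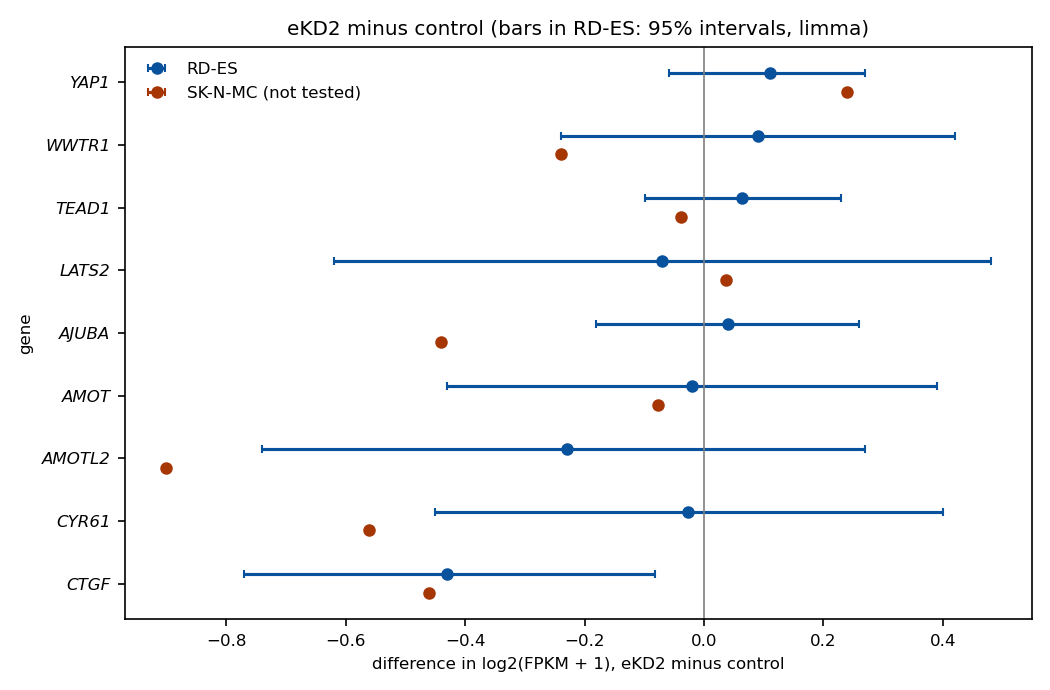
Difference between eKD2 and control libraries in log2(FPKM + 1) for 9 of the 10 genes (ANKRD1 was too low). Points are limma estimates from 2 libraries a group; bars are 95% intervals in RD-ES, and the SK-N-MC points are a description with no test. AMOTL2 is at -0.90 in SK-N-MC and -0.23 in RD-ES, and CTGF at -0.46 and -0.43.

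The rest of the pathway was read from 4 lists with 51 other genes, of which 43 passed the filter. None was called in either eKD2 comparison (0 of 43 with limma, where the shares of all genes called were 0.343% in RD-ES libraries and 0.323% in SK-N-MC libraries). At an unadjusted p under 0.05, 4 of the 43 were higher and 5 lower in RD-ES, where 12.3% of all genes passed in either direction. In SK-N-MC 1 was higher and 3 lower, where 13% of all genes passed. The median log2 change of the 43 genes was 0.041 in RD-ES, against -0.037 for SK-N-MC. By list, the medians in SK-N-MC were -0.08 for 15 Hippo kinases and adaptors, -0.037 for 5 TEADs and cofactors, -0.039 for 12 junction and polarity scaffolds and -0.0055 for 12 genes of a YAP and TEAD target signature (PTPN14 is in both of the last lists). In RD-ES they were 0.078, -0.13, 0.047 and 0.025. The target signature was written from memory of a published one and leaves out the 10 genes. Its lowest and highest values were -0.64 and 0.66 for RD-ES, against -0.30 and 0.35 for SK-N-MC. The smallest adjusted p of the 43 was 0.13 in RD-ES, for GADD45A, a stress response gene (log2 difference 0.66), and 0.25 in SK-N-MC. The genes at an unadjusted p under 0.05 (limma) are named after their values were seen. In SK-N-MC they were the kinase MAP4K4 (-0.25), the third angiomotin AMOTL1 (-0.18), ASAP1 (-0.25) and F3, tissue factor (0.35). In RD-ES those higher in eKD2 were GADD45A (0.66), TJP1 (0.53), TAOK1 (0.41) and RBMS3 (0.31). Those lower were FJX1 (-0.64), ARHGEF17 (-0.54), PTPN14 (-0.50), TEAD2 (-0.27) and MOB1A (-0.22). A test of whether the eKD2 change differed between the lines called 0 of the 43 (smallest adjusted p = 0.20, limma). Of all 15175 genes tested it called 37. At an unadjusted p under 0.05 there were 7 of the 43. The share of all genes at that level is not given here, so nothing is read from the 7.

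**Figure D4:**
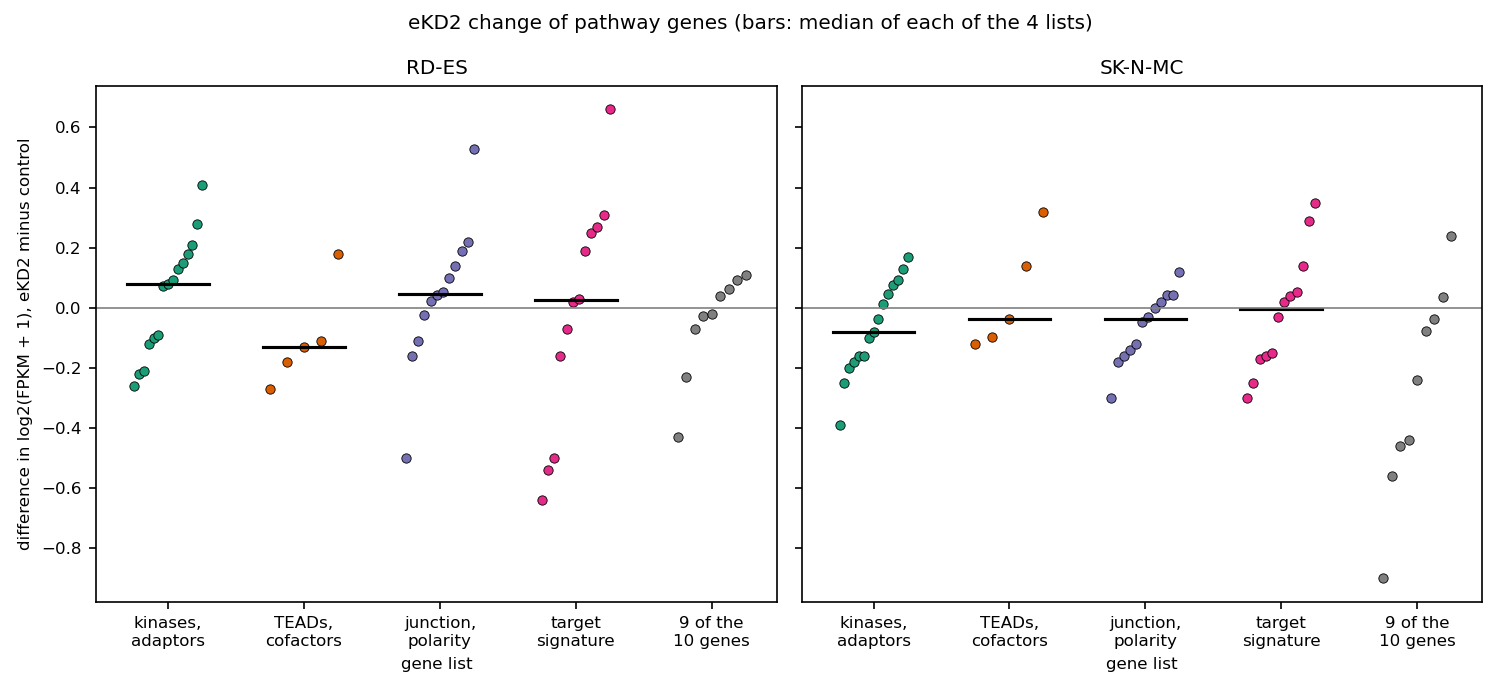
Difference between eKD2 and control libraries in log2(FPKM + 1) in RD-ES (left) and SK-N-MC (right), for 4 lists of other pathway genes and for 9 of the 10 genes. Each point is a gene and bars are the median of each of the 4 lists, -0.13 to 0.078 on the left and -0.08 to -0.0055 on the right. The 9 genes have no bar, since AMOTL2 was known to be low in SK-N-MC eKD2.

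Between the lines the same lists differed widely. In control libraries 20 of the 43 genes were higher in SK-N-MC and 13 lower (limma, adjusted p under 0.05), and in eKD2 libraries also 20 and 13. These compare with the 31.4% and 26.4%, and the 28.2% and 28.1%, of all genes tested that were higher and lower. Both comparisons called 29 of the 43 genes, all 29 with the same sign. The share of all genes tested called in both is not given here, so nothing is read from the 29. Among kinases and adaptors 8 of 15 were higher and 4 lower in control libraries, against 31.4% and 26.4% of all genes tested. WWC1 (KIBRA), an adaptor that activates LATS kinases, was at 54.6 and 44.5 FPKM in RD-ES control and 0.683 and 0.0928 FPKM in SK-N-MC control (log2 difference -5.21, limma adjusted p = 4e-05). The mean of WWC1 was under 1 FPKM in both SK-N-MC groups, so it passed the filter through RD-ES alone. Its call as lower is therefore a description. FRMD6, another upstream adaptor, was at 3.04 and 2.33 FPKM in RD-ES and 24 and 19.5 FPKM in SK-N-MC (2.63, adjusted p = 7.7e-05), and WWC2, a paralog of WWC1, was also higher (1.18, adjusted p = 2e-04). The 3 largest differences of the list were thus among adaptors rather than among the core kinases.

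Of the TEADs and cofactors 3 of 5 were higher and 2 lower in SK-N-MC control cells, against 31.4% and 26.4% of all genes tested. The largest differences were those of VGLL3 (0.80, limma adjusted p = 0.0036), VGLL4 (-0.77, adjusted p = 0.0023) and TEAD3 (0.49, adjusted p = 0.038). VGLL4 competes with YAP for TEADs, and it went from 15.3 and 15.6 FPKM in RD-ES to 8.94 and 8.35 FPKM in SK-N-MC. Of the junction and polarity scaffolds 4 of 12 were higher and 3 lower, near the 31.4% and 26.4% of all genes tested. The protocadherin FAT1 was at 16.8 and 20.1 FPKM in RD-ES control and 0.252 and 0.321 FPKM in SK-N-MC control (-3.91, adjusted p = 2.4e-05), and the tight junction scaffold TJP1 at 9.75 and 8.38 FPKM and at 0.0723 and 0.375 FPKM (-3.05, adjusted p = 4.4e-05). DCHS1, the cadherin bound by FAT4, was higher in SK-N-MC (1.69, adjusted p = 7.6e-05). Of the target signature 5 of 12 were higher and 4 lower, against the same 31.4% and 26.4% of all genes tested. The largest differences were those of RBMS3 (2.21, adjusted p = 3e-05), NUAK2 (-2.06, adjusted p = 0.00022) and FOXF2 (1.66, adjusted p = 6.5e-05). All genes tested also differed between the control lines in both directions, so nothing is read from the counts of these lists. FAT1, TJP1 and NUAK2 had means under 1 FPKM in both SK-N-MC groups and passed the filter through RD-ES alone. Their calls as lower are therefore a description, as for WWC1, and these genes are among those counted as lower.

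**Figure D5:**
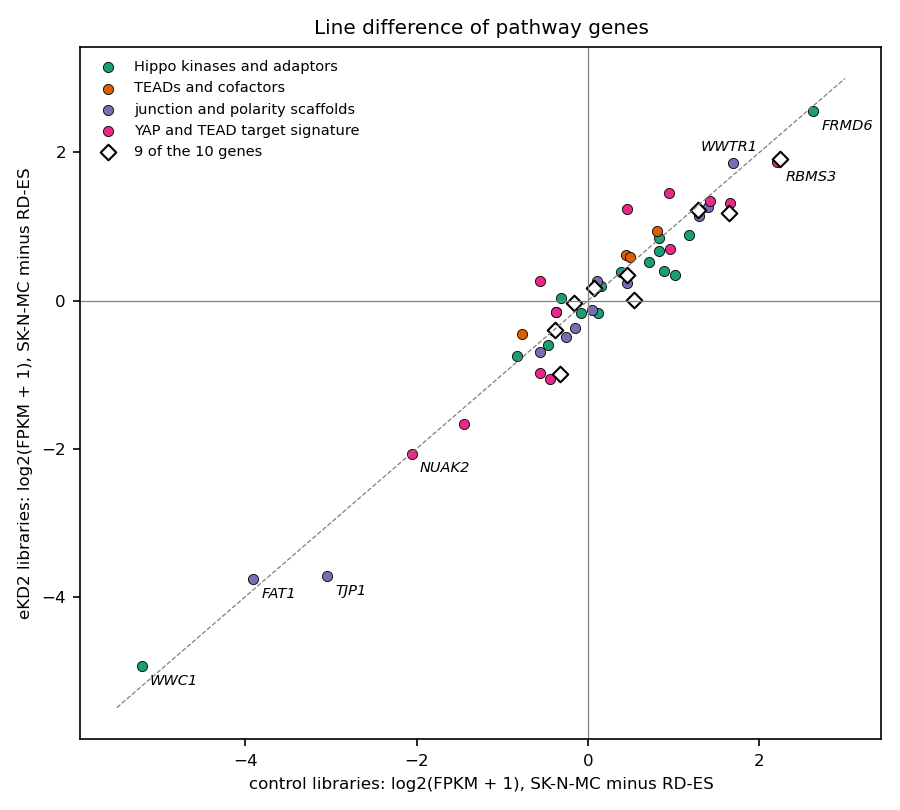
Difference between the lines in log2(FPKM + 1), SK-N-MC minus RD-ES, in control libraries (horizontal) against eKD2 libraries (vertical), for 4 lists of other pathway genes and 9 of the 10 genes (diamonds). Each point is a gene and the dashed line marks equal differences. WWC1, FAT1 and TJP1 lie far below 0 on both axes and FRMD6 and WWTR1 far above.

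Over the 8 libraries the genes whose log2(FPKM + 1) followed AMOTL2 most closely were CEP295 (r = 0.993), RBM22 (0.989), TPM3P9 (0.979), U62317.3 (0.973) and MUS81 (0.971). These are the 5 highest Pearson correlations among the 15175 genes, given as a description over 8 libraries of 4 groups. RBM22, a splicing factor, was at 31.3 and 34.6 FPKM in SK-N-MC control and at 25.9 and 26.7 in SK-N-MC eKD2. It was picked for its likeness to AMOTL2 in these same libraries, so this likeness is no separate result. All r values here include the SK-N-MC eKD2 libraries, in which AMOTL2 was known to be low. Of the 8 other genes of the 10 that passed the filter CTGF was the most like AMOTL2 (r = 0.823), and CYR61 was far less so (r = 0.135). TEAD1 (r = -0.66), WWTR1 (-0.584) and AMOT (-0.561) had the most negative values, and these 3 genes were higher in SK-N-MC.

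Markers of other cell types moved with the line in part. The summed level of 4 fibroblast markers was 6.14 to 7.52 FPKM in RD-ES and 228 to 254 FPKM in SK-N-MC, made up of DCN, LUM and COL3A1, while the fourth, PDGFRA, was at no more than 0.415 FPKM in SK-N-MC. Of 4 leukocyte markers PTPRC was at 0 to 0.0173 FPKM in RD-ES and 19.2 to 22.6 FPKM in SK-N-MC, and the other 3 stayed under 1 FPKM in all libraries, with CD3E at 0. The 4 epithelial markers summed to 0.401 to 4.47 FPKM in RD-ES and 3.68 to 4.93 FPKM in SK-N-MC, with CDH16 at 0, and the 3 endothelial markers found to 0.234 to 0.451 and 0.45 to 0.892 FPKM. The part of these differences in the line differences of WWTR1, AJUBA, AMOT, TEAD1 and CYR61 was not tested. Between control and eKD2 libraries of SK-N-MC the fibroblast sum was 228 to 234 and 254 FPKM, and its part in the lower AMOTL2, CYR61, CTGF and AJUBA values was not tested.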

How the data were processed

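RNA of 8 libraries (poly-A selected, single-end reads of 75 bases, per the paper) was aligned by the authors to GRCh37 with STAR. The deposited values are FPKM per gene and library, made by the authors with cufflinks and cuffnorm, whose scaling option is not given in the sources used here. The authors tested raw counts with DESeq2, and these were not analysed here. Columns of no sample numbered 0.

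Values were compared as log2(FPKM + 1), which understates changes of low genes, for the 15175 genes whose mean over the 8 libraries reached 1 FPKM, in 1 fit of the 4 groups with limma 3.58.1 in R 4.3.3 (eBayes with trend). P-values were adjusted by Benjamini-Hochberg over all genes tested and called under 0.05. The script was checked on simulated data. Other pseudocounts, filters, scalings, fits, the replicate number as a block and leaving out each library were tried. Replicate numbers 1 and 2 were not taken to pair libraries across groups.

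The 10 genes and the pathway and marker lists were chosen with earlier results of these data known. Text names all 10 genes, any listed gene called in an eKD2 comparison, and in each list the 3 called genes with the largest difference between control lines. AMOTL2 was left untested between the lines as well, which is stricter than the planned design. Depth was estimated from the smallest steps of low FPKM values, shared by 15.3% to 22.9% of low genes, and is rough. Promoters are from RefSeq, on GRCh38.p14, and 8 of the 10 genes matched. Gene positions are from GENCODE on GRCh37.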

Additional observations from a re-analysis of the deposited data

How the results depend on the processing

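Every count of genes called, for those tested of the 10 genes and for the other pathway genes, stayed within 1.5 times of the reported count under every alternative run. In RD-ES eKD2 it was 0 of 9 genes tested, and for the 43 other genes it was 0 in both eKD2 comparisons. Between the lines it was 4 to 6 of 8 genes tested in control and 4 to 5 in eKD2 libraries, and 26 to 34 and 27 to 34 of the other genes. WWTR1, AJUBA, AMOT and TEAD1 were called between the lines under all of them. Differences near 0 changed sign. In RD-ES eKD2, median scaling gave -0.007 for TEAD1 and -0.027 for AJUBA, and quantile normalization -0.026 for AJUBA. Leaving out 1 library gave -0.028 to 0.21 for WWTR1, -0.32 to 0.18 for LATS2, -0.034 to 0.11 for AJUBA, -0.22 to 0.18 for AMOT and -0.27 to 0.22 for CYR61. Between control lines LATS2 was -0.054 with median scaling, -0.094 with quantile normalization and -0.031 to 0.16 without 1 library. Between eKD2 lines CYR61 was -0.052 with median scaling, -0.091 with quantile normalization and -0.24 to 0.25 without 1 library, YAP1 -0.058 to 0.0043 and LATS2 -0.081 to 0.42. Median scaling moved the median of all genes between control lines from 0.065 to -0.042. The cause of these changes was not tested.

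Between eKD2 lines CTGF passed the threshold with a pseudocount of 0.1 (-0.54, adjusted p = 0.043, limma), where its SK-N-MC eKD2 difference was -0.61. Over all genes tested, deviations of same-numbered libraries correlated with r between -0.0206 and 0.0643. This shows no pairing by replicate number but cannot exclude it. With the replicate number as a block, the CYR61 difference between control lines was 0.54 (adjusted p = 0.059, limma) and that of CTGF between eKD2 lines -0.40 (adjusted p = 0.045), and the block changed no other call of the 10 genes. With 2 libraries a group, eKD2 differences of LATS2, AMOT, AMOTL2 and CYR61 within their intervals in RD-ES could not be told from 0.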
